A study of Mus musculus with 3 samples.

Results

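Vil1, Anpep, Dpp4, Enpep, Ezr, Pdzk1 and Myo1a, 7 genes of the brush border and the apical cell surface, were followed across the germ layers of the gastrulating mouse embryo. They were chosen by name, with earlier results of these data known. The 11 probe sets that carry these symbols were taken from the 45037 on the array, which cover 18193 named genes. The layers came from ICR embryos at embryonic day 7.5 (E7.5) with no treatment or genetic change given in the labels, and were the endoderm, the mesoderm and the epiblast, which here included the neuroectoderm and the primitive streak. Per the study's methods, the embryonic region was cut off after Reichert's membrane had been taken away, loosened with trypsin and pancreatin, and pulled apart with fine needles. Each layer was hybridised to 1 array from 100 ng of RNA, so no difference has a replicate check, and the number of embryos behind each array and their sex are not stated.

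A brush border is a dense field of microvilli on the apical face of an absorptive epithelial cell. Each microvillus holds a bundle of actin filaments, cross-linked by villin and related proteins and tied to the plasma membrane by ezrin and by short-tailed myosins. Peptidases and other enzymes sit on the outside of that membrane and finish the digestion of nutrients, while PDZ scaffold proteins hold transporters in place from the inside. In the gastrulating mouse the visceral endoderm, which covers the embryo and takes up maternal nutrients, is known as such an epithelium.

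All values named here are intensities as deposited, on a linear scale, and are listed in the order endoderm, mesoderm and epiblast unless a layer is named. The median of all values, an intensity of 80.6, served as a floor. A value below it was taken as a bound, so a fold against it reads "at least", while log2 differences are given as read. A gene counts as differing between layers where it was at least 2-fold apart and its highest value lay above the floor. Probe sets that share a gene differed from each other in their log2 difference with a pooled SD of 0.40 where endoderm was set against epiblast. The SD was 0.39 for endoderm and mesoderm and 0.27 for mesoderm and epiblast, all over 5536 genes. This is the error available here, and it does not measure the spread between embryos.

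The layers were checked by markers, also chosen with earlier results of these data known. Sox17 and Foxa2 were highest in endoderm (4170 and 3247), Kdr and Foxf1 in mesoderm (2300 and 1098) and Sox2 in epiblast (3032), while Pax6 lay between 92.4 and 181 and did not mark its layer. Of the visceral endoderm markers, 8 of 8 exceeded either other layer at least 2-fold in endoderm, beside 6.24% of all genes. Their intensities summed to 50984, 709 and 910 in endoderm, mesoderm and epiblast, so the endoderm sample held transcripts of that tissue in abundance. Of the parietal endoderm markers, 5 of 6 were higher in endoderm than in epiblast and 2 of 6 than in mesoderm. The shares of all genes were 8.78% and 8.01%. Thbd was counted lower in endoderm than in mesoderm, beside 2.71% of all genes. The parietal sums were 7981, 4019 and 1727. None of the markers of trophoblast (4 measured), blood (5) and decidua (5) was counted higher in endoderm, and their sums were lowest there, at 479, 445 and 323, beside 571, 468 and 432 in mesoderm and 602, 487 and 523 in epiblast. In a dissected layer, fewer cells of a type and less RNA per cell cannot be told apart.

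The endoderm carried most of the brush border signal. Vil1, Dpp4, Enpep, Ezr and Pdzk1, 5 of the 7 genes, exceeded their epiblast value at least 2-fold in endoderm, where 8.78% of all 18193 genes were higher by the same rule. The same 5 passed the limit over mesoderm, where the share of all genes was 8.01%, and therefore above both other layers, as were 6.24% of all genes. Of the remaining pair, Anpep was highest in mesoderm and Myo1a lay below the floor on every array. The median log2 difference over all 7 genes was 3.27 for endoderm against epiblast and 2.98 for endoderm against mesoderm, beside -0.003 and 0.04 over all genes. The comparisons share the endoderm array and are not independent of each other. Because the genes were chosen with earlier results of these data known, their excess over the shares of all genes is a description only.

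**Figure D1:**
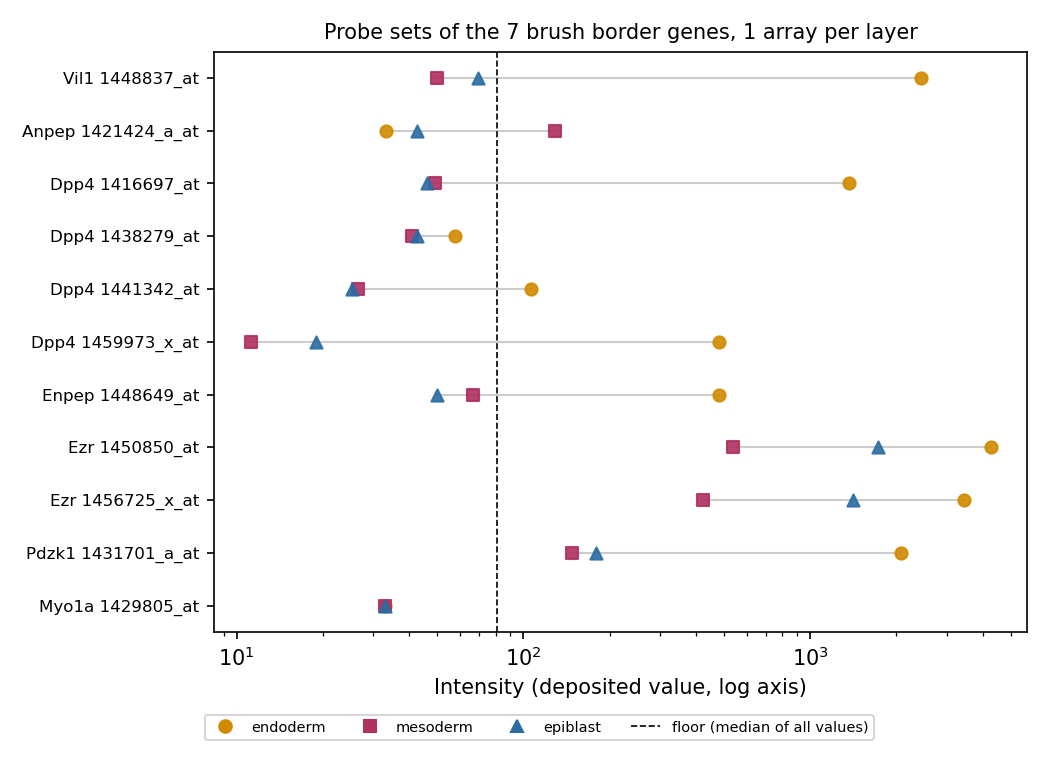
Intensity on a log axis for each of the 11 probe sets of the 7 genes, 1 point for each layer's single array, and a dashed line at the floor of 80.6. The endoderm point lies to the right for Vil1, Enpep, Pdzk1, both Ezr and all 4 Dpp4 probe sets, 1 of the latter below the floor, Anpep has its highest value in mesoderm at 129, and the Myo1a points coincide near 33.

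The sequence before the transcription start was read for each of the 7 genes from RefSeq (build GRCm38.p6), where Pdzk1 has 2 starts. No build is stated for the array, and no probe position is reported. The 250 bases upstream of the start are given 5′ to 3′ on the strand of the gene. They are shown for the 4 genes with the largest excess over epiblast in endoderm, for Ezr and for Anpep. Ezr, like Pdzk1, was above the floor in every layer, and Anpep was highest in mesoderm. Capitals mark matches to the motifs searched on both strands, and the first of the Pdzk1 starts is shown.
Vil1, chr1:74409134-74409383, plus strand: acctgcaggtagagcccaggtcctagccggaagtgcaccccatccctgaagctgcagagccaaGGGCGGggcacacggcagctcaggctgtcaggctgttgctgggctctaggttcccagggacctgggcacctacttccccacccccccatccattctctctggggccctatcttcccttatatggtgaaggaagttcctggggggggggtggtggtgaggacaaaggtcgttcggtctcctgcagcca
Dpp4, chr2:62412232-62412481, minus strand: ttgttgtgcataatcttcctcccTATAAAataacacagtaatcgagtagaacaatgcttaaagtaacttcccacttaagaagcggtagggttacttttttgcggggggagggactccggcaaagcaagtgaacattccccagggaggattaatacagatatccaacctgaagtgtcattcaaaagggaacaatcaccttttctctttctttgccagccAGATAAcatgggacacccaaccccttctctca
Enpep, chr3:129332750-129332999, minus strand: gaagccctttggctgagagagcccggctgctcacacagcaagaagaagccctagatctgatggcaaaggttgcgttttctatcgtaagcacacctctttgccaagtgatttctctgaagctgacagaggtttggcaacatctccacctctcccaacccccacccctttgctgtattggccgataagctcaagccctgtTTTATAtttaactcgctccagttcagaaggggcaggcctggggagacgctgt
Pdzk1, chr3:96829815-96830064, plus strand: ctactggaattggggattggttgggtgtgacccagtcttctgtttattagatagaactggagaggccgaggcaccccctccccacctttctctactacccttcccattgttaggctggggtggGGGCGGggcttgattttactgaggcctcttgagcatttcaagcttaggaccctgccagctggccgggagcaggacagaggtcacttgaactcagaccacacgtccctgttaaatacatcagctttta
Ezr, chr17:6782781-6783030, minus strand: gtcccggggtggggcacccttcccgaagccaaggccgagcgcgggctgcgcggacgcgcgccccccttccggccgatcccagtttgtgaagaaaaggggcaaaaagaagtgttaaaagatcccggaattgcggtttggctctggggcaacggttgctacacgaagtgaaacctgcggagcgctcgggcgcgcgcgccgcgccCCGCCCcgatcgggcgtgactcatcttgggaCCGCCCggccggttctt
Anpep, chr7:79848211-79848460, minus strand: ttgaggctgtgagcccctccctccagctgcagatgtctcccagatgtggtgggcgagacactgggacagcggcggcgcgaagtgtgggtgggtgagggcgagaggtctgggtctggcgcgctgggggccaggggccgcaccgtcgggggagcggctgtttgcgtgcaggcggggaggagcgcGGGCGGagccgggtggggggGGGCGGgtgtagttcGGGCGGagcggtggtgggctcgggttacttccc

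The letters of 5 motifs were searched in all 8 windows and, for the background, in windows of the same length before 32851 RefSeq starts. The GC box, GGGCGG, the site of Sp1 and related factors, was found in 32.7% of all windows. The TATA box was searched as TATAAA and was found in 12.4%. A core of the HNF4 site, CAAAGT, was found in 12.6% and a site of GATA factors, AGATAA, in 9.99%. The HNF1 palindrome, GTTAATNATTAAC, was found in 0.00913% of windows. GC boxes stood before Vil1, Anpep, Ezr and the first Pdzk1 start, once in Vil1 and Pdzk1, at 2 places in Ezr and at 3 in Anpep. TATAAA matched in Dpp4 and, on the opposite strand, in Enpep, but 227 and 52 bases before the start, away from the usual place of a TATA box. The single GATA match was in Dpp4, 32 bases before the start. The HNF4 core and the HNF1 palindrome matched in 0 of the 8 windows. These are letter matches and say nothing of binding. The share of G and C was 72.8% before Anpep and 67.2% before Ezr, 62.8% before Vil1, 53.2% and 50.8% before the Pdzk1 starts, 56.0% before Myo1a, 52.4% before Enpep and 43.6% before Dpp4, beside a median of 52.4% over all windows.

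Of the structural genes, Vil1 showed the widest gap. Vil1 encodes villin, which bundles, caps and severs actin filaments in the microvillus core. Its single probe set (1448837_at) was 2435, 49.9 and 69.4. The endoderm value was at least 30.2-fold above each of the others, which were both below the floor and whose order is therefore not known. As read, the mesoderm value was 2.05% and the epiblast value 2.85% of that in endoderm.

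Ezr differed from Vil1 in being well above the floor in every layer. Ezr encodes ezrin, which links the cytoplasmic tails of membrane proteins to actin filaments. Its brighter probe set (1450850_at) was 4256, 540.3 and 1723, and its second one (1456725_x_at) was 3437, 424 and 1415. Both gave the same order, with endoderm highest, epiblast between and mesoderm lowest. Endoderm was 2.47-fold above epiblast by the brighter probe set and 2.43-fold by the other, and 7.88-fold and 8.10-fold above mesoderm. Epiblast was 3.19-fold and 3.34-fold above mesoderm. Over all 3 comparisons the probe sets lay closer to each other than the SD between probe sets of a gene. Ezr was the one gene of the 7 counted lower in mesoderm than in epiblast, beside 2.28% of all genes.

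Myo1a encodes brush border myosin I, a short-tailed motor that bridges the actin core and the membrane in the intestine. Its probe set (1429805_at) was 32.8, 32.9 and 33.0, below the floor on every array. The layers could not be told apart at this signal, and the reading says only that no Myo1a transcript was measurable with this probe set.

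Pdzk1 encodes a scaffold with several PDZ domains that anchors transporters and the lipoprotein receptor Scarb1 at the membrane. Its probe set (1431701_a_at) was 2067, 148 and 179. All were above the floor, so these folds are measured and not bounds. Endoderm was 11.5-fold above epiblast and 13.9-fold above mesoderm, while mesoderm and epiblast were 1.21-fold apart, a log2 difference of -0.28 against a probe set SD of 0.27.

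The peptidases of the list did not follow a single pattern. Dpp4 encodes dipeptidyl peptidase 4, a membrane protease that removes dipeptides after proline or alanine. Its brightest probe set (1416697_at) was 1367, 49.1 and 46.2, and so exceeded either other layer at least 17.0-fold in endoderm. A second (1459973_x_at) was 481, 11.2 and 18.9, at least 5.96-fold, and another (1441342_at) was 106, 26.6 and 25.3, at least 1.32-fold. The fourth (1438279_at) was 57.6, 41.0 and 42.7 and stayed below the floor in all layers. All 4 had their highest value in endoderm, but the size of the difference depended on the probe set. With the mean log2 of all 4 probe sets the difference between endoderm and epiblast was 3.01 in place of 4.89.

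Enpep encodes glutamyl aminopeptidase, which trims acidic residues from the amino end of peptides, angiotensin II among them. Its probe set (1448649_at) was 481, 66.8 and 49.9. The other layers were below the floor, and endoderm exceeded them at least 5.97-fold.

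Anpep, which encodes aminopeptidase N, a broad zinc peptidase of brush borders also known from myeloid cells and pericytes, went the other way. Its probe set (1421424_a_at) was 33.1, 129 and 42.5. Mesoderm was the one layer above the floor, at least 1.60-fold above each of the others. It was the one gene of the 7 counted lower in endoderm than in mesoderm, beside 2.71% of all genes, and the one counted higher in mesoderm than in epiblast, beside 2.42% of all genes. None of the 7 was counted lower in endoderm than in epiblast, beside 2.82% of all genes. The Anpep calls rest on a dim value. The differences of 1.97 and 1.60 on the log2 scale as read became 0.68 with dim values raised to the floor, under the 2-fold limit. With a single probe set there is no second reading of this gene.

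**Figure D2:**
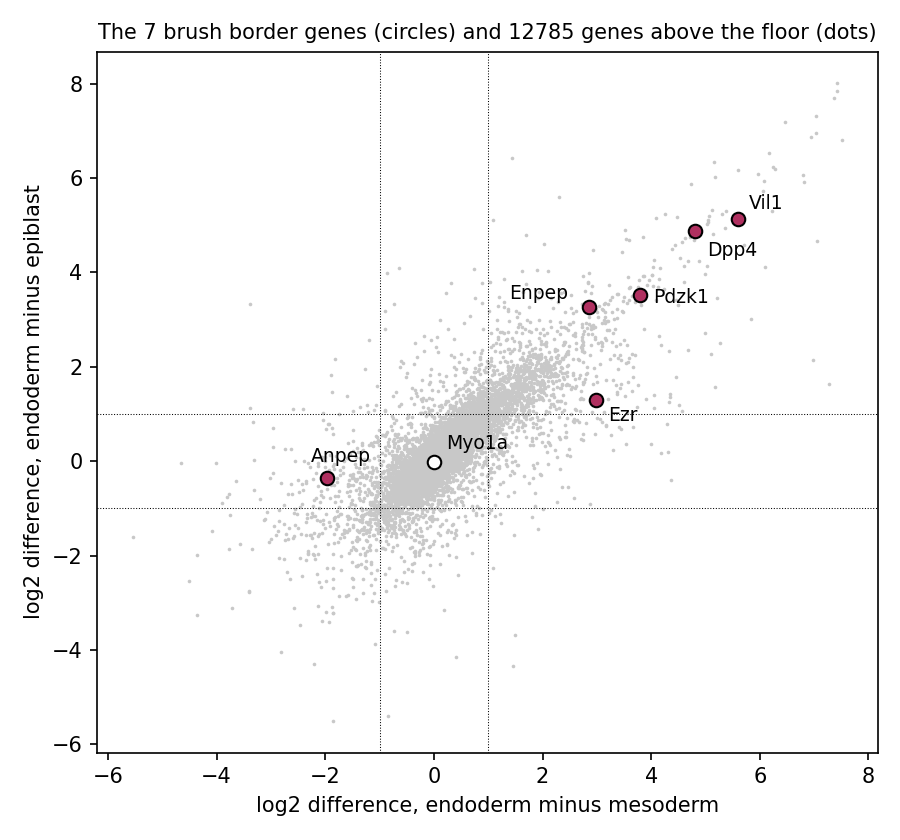
Log2 difference of endoderm against mesoderm (horizontal) and against epiblast (vertical) for the 7 genes (circles, open for Myo1a, which is below the floor) and for 12785 genes above the floor (grey dots), with dotted lines at 2-fold and 1 array per layer. Vil1 and Dpp4 lie far to the upper right at 5.61 and 5.13, and 4.80 and 4.89, Ezr is at 2.98 and 1.30, and Anpep is at -1.97 and -0.36.

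By the shape of their profile over the 3 arrays, the genes fell close together or far apart. Likeness was measured as the Euclidean distance between log2 profiles, each centred on its own mean, so a small distance means the same differences between layers whatever the level. Vil1 and Dpp4 were 0.59 apart and Enpep and Pdzk1 0.70 apart. Ezr was between 1.59 and 2.77 from the others that were highest in endoderm. Anpep was at least 3.55 from each of Vil1, Dpp4, Enpep, Ezr and Pdzk1. With values below the floor in mesoderm and epiblast, the distances of Vil1, Dpp4 and Enpep depend on readings that are bounds, and those of Anpep on its readings below the floor in endoderm and epiblast.

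Among 12784 other genes above the floor, the nearest to each of the 6 were as follows, as a description over 3 arrays. Each gene was read from 1 probe set, and the distances depend on that choice. Nearest to Vil1 were the apolipoprotein genes Apoa2 (3048, 64.0 and 81.3, distance 0.10) and Apoa1 (0.29), the latter also among the visceral endoderm markers, with the vitamin C transporter gene Slc23a1 (0.18) between them. The other Apoa1 probe sets had log2 differences over epiblast of 6.75 to 7.80, beside 5.31 for the one used. Nearest to Dpp4 were Cdhr2 (0.04), which encodes a protocadherin of microvillar tips, Hnf4a (0.10), a transcription factor of absorptive and hepatic epithelia, and Reep6 (0.14). The other Hnf4a probe sets ranged from 0.56 to 6.17 over epiblast, beside 4.75 for the one used, and those of Dpp4 also differed. Pdzk1 was closest to Sfmbt2 (0.09), Myorg (0.11) and the amino acid transporter gene Slc43a2 (0.11), and Enpep to Bicc1 (0.03), Zdhhc9 (0.14) and Ltk (0.14). Ezr was closest to Pdpn (3565, 388 and 1429, distance 0.17), which encodes podoplanin, a membrane glycoprotein that binds ezrin, then to Spint1 (0.19) and Efcab1 (0.20). Closest to Anpep, by a ranking that rests on its values below the floor, were Mef2c (66.2, 249.6 and 82.3, distance 0.04), a factor of cardiac and skeletal muscle, Rbm20 (0.11), a splicing regulator of heart muscle, and the integrin gene Itga8 (0.13).

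The other genes of the brush border were read from 7 lists of related genes, 78 of whose 84 entries were among the named probe sets. Of these 78, 26 (33.3%) exceeded their epiblast value at least 2-fold in endoderm and 3 (3.85%) were lower there, beside 8.78% and 2.82% of all genes. Against mesoderm 23 (29.5%) were higher in endoderm and 3 (3.85%) were lower, beside 8.01% and 2.71%. Between mesoderm and epiblast 3 (3.85%) were higher in mesoderm and 5 (6.41%) lower, beside 2.42% and 2.28%. The counts of 3 and 5 are small, and a share of 3.85% is near that of all genes. The median log2 differences were 0.24, 0.38 and -0.11 in these comparisons, beside -0.003, 0.04 and -0.04 over all genes. All 7 lists include genes within 2-fold, and 15 of the 78 were below the floor in all layers, beside 5408 of all 18193 genes. The lists too were chosen with earlier results of these data known, so their shares are a description only.

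The split between higher and lower genes depends in part on how arrays are scaled. Over all genes, 75.7% of those that differed between endoderm and epiblast were higher in endoderm, and this became 64.3% after quantile normalization and 92.9% with arrays centred on the median housekeeping level. For endoderm against mesoderm it was 74.7%, and 86.2% with that centring, and for mesoderm against epiblast 51.5% and 64.7%. That centring lifted the median of all genes in endoderm over epiblast from -0.003 to 0.46 on the log2 scale. In the wider lists the shares higher in endoderm were 89.7% and 88.5%, and they stayed within 10 points under these scalings, while that of mesoderm over epiblast moved from 37.5% to 55.6%. Some calls in the wider lists lay close enough to the limit to be lost. With quantile normalization these were Slk, Mpp5 and Myo1c over epiblast and Pls3 and Gata4 over mesoderm, all higher in endoderm. With the median housekeeping level they were Alpl and Msn, lower in endoderm than in epiblast, and Pls1, lower in mesoderm than in epiblast. No call for the 7 genes was lost under these scalings.

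**Figure D3:**
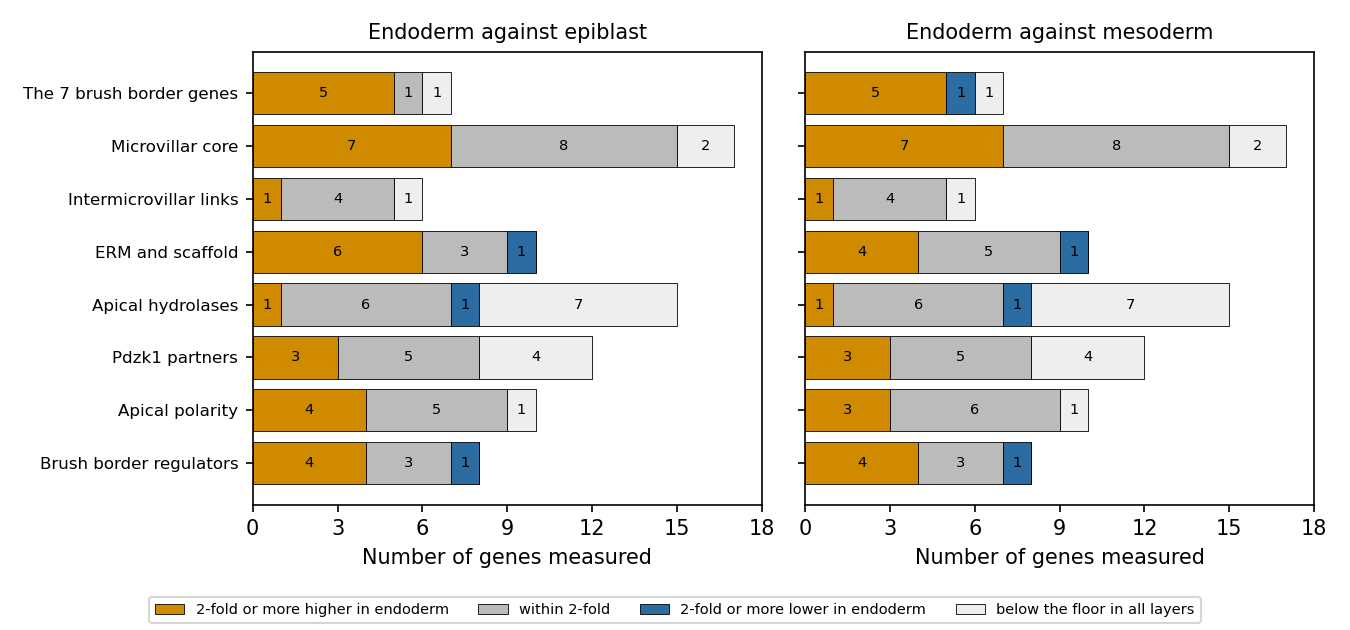
Number of measured genes in each list that were at least 2-fold higher in endoderm, within 2-fold, at least 2-fold lower, or below the floor in all layers, for endoderm against epiblast (left) and against mesoderm (right), from 1 array per layer. The 7 brush border genes have 5 higher in both panels, the microvillar core 7 of 17, and the apical hydrolases 1 of 15 with 7 below the floor. Over all genes the shares higher in endoderm were 8.78% (left) and 8.01% (right).

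In the microvillar core, the actin bundlers, membrane linkers and motors, 7 of 17 genes passed the limit in endoderm over epiblast and 0 were lower. Over mesoderm the counts were also 7 and 0. The shares of all genes were 8.78% higher and 2.82% lower over epiblast, and 8.01% and 2.71% over mesoderm. Myo6, a motor that moves toward the minus end of actin filaments and works in endocytosis at the base of microvilli, was 1739, 51.8 and 47.6, so that endoderm exceeded the others at least 21.6-fold. Myo5b, the motor of apical recycling endosomes, was 391, 32.4 and 36.4, at least 4.85-fold higher. Pls1, which encodes the plastin of the intestinal microvillus, was 346, 43.9 and 99.3, or 3.48-fold over epiblast and at least 4.29-fold over mesoderm. Eps8, an actin capping and bundling protein of microvillar tips, was 838, 119.9 and 234, with 3.58-fold and 6.99-fold.

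The other probe sets of Myo6 and Myo5b were also highest in endoderm. Myo6 was also read at 433, 100.5 and 69.6 and at 143, 31.2 and 32.6, and Myo5b at 134, 42.6 and 55.0 and, below the floor in all layers, at 64.9, 51.8 and 45.8. Some relatives of Myo1a and Vil1 were also taken, outside the naming rule and after their values were seen. The class I myosins Myo1d and Myo1e were within 2-fold in all layers (180, 104 and 141, and 129, 119 and 144), and Myo1c was 974, 704 and 478. Its 2.04-fold excess over epiblast fell under the limit after quantile normalization or cyclic loess. Vill, the villin-like gene, was 151, 146 and 161, and Fscn1, the bundler of filopodia, was 6400, 8636 and 7576, both within 2-fold, in contrast to Vil1.

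Of the intermicrovillar links, the adhesion complex that joins microvillar tips, 1 of 6 genes was higher in endoderm in both comparisons, beside 8.78% of all genes over epiblast and 8.01% over mesoderm, and a count of 1 says little of the list. This was Cdhr2, at 522, 19.5 and 17.9, at least 6.48-fold over each other layer. Its partners were dim and within 2-fold. Anks4b was 149, 77.9 and 81.5, Ush1c was 89.1, 90.7 and 136, and Myo7b was 77.0, 69.4 and 81.6.

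Of the ezrin relatives and scaffolds, 6 of 10 were higher in endoderm and 1 lower when set against epiblast, and 4 and 1 when set against mesoderm. The shares of all genes were 8.78% and 2.82% against epiblast, and 8.01% and 2.71% against mesoderm. The ezrin family was divided. Msn, which encodes moesin, the family member of endothelial and blood cells, was 574, 1735 and 1284, 3.02-fold lower in endoderm than in mesoderm and 2.24-fold lower than in epiblast. The latter call was lost with arrays centred on the median housekeeping level, where the difference was 0.70 on the log2 scale in place of 1.16. Its second probe set gave the same order at 82.3, 291 and 206. Mesoderm was thus the layer lowest in Ezr and highest in Msn. Rdx, the gene of radixin, was 6259, 3172 and 2505, a gene picked with its values in view.

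The scaffolds beside Pdzk1 were divided. Slc9a3r1, known as NHERF1, which binds ezrin and transporters, was 7164, 2197 and 2749, or 2.61-fold over epiblast and 3.26-fold over mesoderm, and its other probe sets ran the same way. Pdzd3, another scaffold of the NHERF family, was 232, 27.4 and 40.1, at least 2.88-fold higher. Slc9a3r2, known as NHERF2 and picked outside the naming rule with its values in view, was 225, 207 and 206, within 2-fold in all comparisons. Stk10, a kinase that phosphorylates ezrin, was 482, 139 and 204, and Podxl, which encodes podocalyxin, an apical sialomucin tied to ezrin, was 6610, 2104 and 1959. Stk10 was 2.36-fold and Podxl 3.37-fold above epiblast in endoderm.

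Apical hydrolases other than the 3 peptidases above mostly stayed within 2-fold or below the floor. Of 15 measured genes, 1 was higher in endoderm in both comparisons, no larger a share than the 8.78% and 8.01% of all genes. In each comparison 1 was lower, beside 2.82% and 2.71% of all genes, and a count of 1 says little. There were 7 below the floor in all layers, beside 5408 of all 18193 genes. Among them were the meprin genes Mep1a and Mep1b and the intestinal alkaline phosphatase gene Alpi, named after their values were seen. The higher one was Cpm, which encodes the membrane carboxypeptidase M. It was 1672, 97.6 and 157, 10.7-fold over epiblast and 17.1-fold over mesoderm, and its second probe set was 1717, 43.7 and 57.9. Mme, which encodes neprilysin, was 60.7, 165 and 92.1 and so had its highest value in mesoderm, as Anpep did. Its second probe set was below the floor in all layers. Alpl was 99.8, 198 and 206, and Naaladl1 was 129, 68.0 and 71.2. The calls for Mme (at least 2.04-fold) and Alpl (2.06-fold over endoderm in epiblast) lie at the limit.

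Among membrane proteins that bind scaffolds of the Pdzk1 family, 3 of 12 were higher in endoderm in both comparisons and 0 were lower. Of all genes, 8.78% were higher over epiblast and 8.01% over mesoderm, and 2.82% and 2.71% were lower. A count of 3 is small, and 0 lower of 12 is near the share of all genes. Scarb1, the receptor for high-density lipoprotein, was 1323, 169 and 219, 6.05-fold over epiblast and 7.84-fold over mesoderm. Its other probe sets were 1142, 156 and 200.3, and 934, 146 and 177. Abcc2, the apical exporter of organic anions, was 359, 26.5 and 27.8, at least 4.45-fold, and Slc26a6, an apical anion exchanger, was 299, 74.7 and 80.2, at least 3.71-fold. Slc22a5, the carnitine transporter gene, was 227, 185 and 152. The sodium-proton exchanger gene Slc9a3 and the chloride channel gene Cftr, named after their values were seen, were 93.0, 87.8 and 76.2, and 15.6, 17.7 and 14.9.

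Of the genes of apical polarity and trafficking, 4 of 10 were higher in endoderm when set against epiblast and 3 of 10 when set against mesoderm, with 0 lower. The shares of all genes higher in endoderm were 8.78% and 8.01%, and those lower were 2.82% and 2.71%, so 0 lower of 10 is near the latter. Stx3, the apical syntaxin, was 4250, 884 and 1766, an order of layers like that of Ezr, at 2.41-fold over epiblast and 4.81-fold over mesoderm. Patj, a scaffold of the Crumbs complex, was 853, 219 and 275, and Rab11a, the GTPase of recycling endosomes, was 4862, 1673 and 1632. Crb3, taken outside the naming rule with its values in view, was within 2-fold at 646, 491 and 603.5. Its other probe sets were at least 2-fold higher in endoderm, at 860, 31.7 and 296, and 660, 169 and 304. With the mean log2 of all probe sets, 3 genes of the list were higher in endoderm over epiblast and 4 over mesoderm. Prom1, which marks apical protrusions of stem and epithelial cells, was 1751, 1128 and 2801 and so was 2.48-fold lower in mesoderm than in epiblast.

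**Figure D4:**
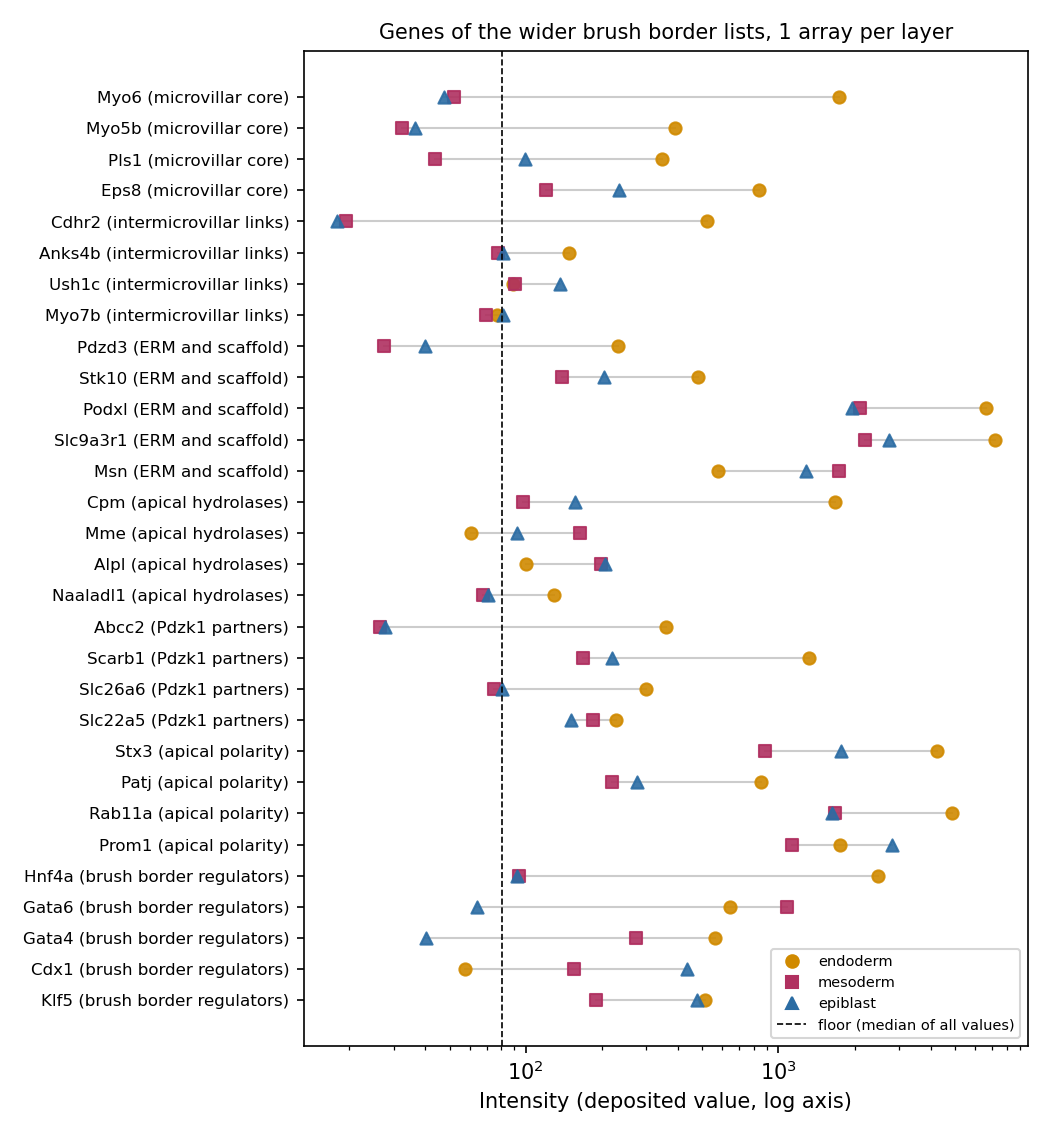
Intensity on a log axis for the genes that the naming rule took from the wider lists, 1 point for each layer's single array, and a dashed line at the floor of 80.6. Myo6, Cpm, Cdhr2 and Hnf4a stand far higher in endoderm than elsewhere, Msn and Mme are highest in mesoderm, and Cdx1 and Prom1 in epiblast.

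Transcription factors that drive genes of absorptive epithelia were measured in 8 of 10 cases. In endoderm 4 were higher than in epiblast and 1 was lower, beside 8.78% and 2.82% of all genes. Against mesoderm the counts were also 4 and 1, beside 8.01% and 2.71%. With the mean log2 of all probe sets, 2 were higher and 1 was lower than in mesoderm, while the counts against epiblast stayed at 4 and 1. Hnf4a was 2471, 94.0 and 92.1, 26.8-fold over epiblast and 26.3-fold over mesoderm, and its other probe sets were 1048, 11.3 and 14.5, 192, 18.6 and 20.9, and 105, 59.4 and 71.2. All were highest in endoderm. Gata4 was 562, 274 and 40.4, and Gata6 was 644, 1079 and 63.9. By these probe sets the excess of endoderm over epiblast was at least 6.97-fold for Gata4 and at least 7.99-fold for Gata6. Gata6 was highest in mesoderm. The other Gata4 probe set was 97.65, 76.5 and 41.9, at least 1.211-fold over epiblast. Another Gata6 probe set was 233.7, 376.9 and 81.44, a measured 2.869-fold over epiblast. The remaining Gata6 probe set was below the floor in all layers. The intestinal factor Cdx1 went the other way at 57.4, 155 and 435. Klf5, a factor of epithelial and pluripotent cells, was 512, 189 and 475, with endoderm and epiblast 1.08-fold apart and mesoderm lowest.

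The markers of visceral endoderm were higher in the same sample as the 5 genes. The 8 markers had a median log2 difference of 6.39 against epiblast and 6.21 against mesoderm. The 5 genes, read on the same array, had differences against epiblast below that median, with 5.13 for Vil1, 4.89 for Dpp4, 3.53 for Pdzk1, 3.27 for Enpep and 1.30 for Ezr. The markers themselves ran from 1.56 for Lrp2, under all of these but Ezr, to 8.01 for Apob. Epiblast values were below the floor for Vil1, Dpp4 and Enpep and for the markers Afp, Apob, Amn and Cubn. Their log2 differences are as read, and their order by size is not settled. How much of the signal of the 5 genes came from visceral and how much from other endoderm was not tested.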

How the data were processed

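RNA from 3 germ layers of E7.5 ICR embryos was read on Affymetrix Mouse Genome 430 2.0 arrays, 1 per layer. The values as deposited are linear intensities. Per the labels and the methods, the authors used the scanner maker's software on the raw data, and separately Robust Multiarray Average (RMA) and the affy package. RMA usually gives log2 values, and the step back to a linear scale is not stated. Medians were 79.9, 79.9 and 82.2 and upper quartiles 318, 276 and 268, so the arrays do not share a distribution.

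Of 45037 probe sets, 34945 had 1 symbol in the platform annotation, 932 several and 9160 none. Through the Entrez identifier 34741 were found in RefSeq, and 0 symbols changed. Each gene was read from its probe set of highest mean log2. Intensities were converted to log2 and subtracted (Python 3.11.15, pandas 2.3.3, NumPy 2.4.6; limma 3.58.1 for quantile and cyclic loess alternatives). The code for the calls was tested on simulated data, which says nothing of the spread between embryos. Significance Analysis of Microarrays, named in the methods, needs replicates, so no p-values are given, and the number of arrays limits precision. The 7 genes, the 7 wider lists and the marker lists were chosen with earlier results of these data known. Named were, per list, the 4 genes above the floor with the largest range and those at least 2-fold against their list, and per brush border gene the 3 nearest profiles. Alternatives changed the probe set rule, the floor, dim values, normalization, the fold limit and an offset of 50.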

Additional observations from a re-analysis of the deposited data

How the results depend on the processing

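There were 11 alternatives, 1 of them chosen after seeing the data (centring on the median difference of 9 housekeeping genes). The 5 genes higher in endoderm were still counted against both layers under all but the 3-fold limit, where Ezr was no longer counted against epiblast. Their differences are too large for the centrings to turn, and a change of floor or limit alters no difference. The single genes counted lower in endoderm than in mesoderm and higher in mesoderm than in epiblast, both Anpep, became 0 and 0 with the floor moved to the 75th percentile or with dim values raised to the floor, and with an offset of 50 the latter was 0. In the wider lists, the genes lower in endoderm than in mesoderm numbered 5 after quantile normalization, 1 with a 3-fold limit and 1 with the offset. Centring on the median housekeeping level left 1 lower in endoderm than in epiblast and gave 5 higher in mesoderm than in epiblast. A 3-fold limit gave 16 higher and 1 lower in endoderm than in epiblast and 0 lower in mesoderm than in epiblast. The gene at the housekeeping median was Polr2a in endoderm and Hprt in the other layers, so that centring compares different genes.

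Over all genes, the floor at the 75th percentile gave 325 lower in endoderm than in epiblast (from 513) and 266 lower in mesoderm than in epiblast (from 415). The offset gave 325 for the former, and 290 higher and 271 lower for mesoderm against epiblast (from 440 and 415). The housekeeping level gave 3055 higher and 235 lower in endoderm than in epiblast (from 1598 and 513). A 3-fold limit gave 774 and 182 for endoderm against epiblast, 767 and 220 for endoderm against mesoderm (from 1458 and 493) and 181 and 193 for mesoderm against epiblast. No paired analysis was possible because each layer has 1 array. Dim signal limits Anpep and Myo1a, and the layers in which Vil1, Dpp4 and Enpep were below the floor.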
